A study of Homo sapiens with 36 samples.

Results

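The response of SW1783 cells to the medium of 3 doses of ACD, 100 µg/mL, was measured by RNA sequencing after 24 h. The comparison was made between 3 libraries given the medium dose and 3 libraries given the vehicle of the same batch, batch B, so that 6 of the 36 libraries of the series carried it, and all genes of the table entered. SW1783 is a human cell line taken from an astrocytoma. ACD is an extract that was made in hot water from Aconitum carmichaeli Debeaux, a monkshood used as a herbal drug. The labels name it as a water extract of Aconiti Lateralis Radix Preparata. The other SW1783 libraries of batch B, with 3 at 20 µg/mL (low) and 3 at 500 µg/mL (high), were used to place the medium dose on the dose scale. All 12 libraries came from the same line, grown in Leibovitz's L-15 medium with serum and harvested at the same time. The labels give the vehicle as 0.1% DMSO, whereas the design text and the methods of the study give 2% DMSO. In the methods, 2% is the content of the solution that was added to the growth medium of the wells, which diluted it. The figures therefore need not conflict. The labels do not say whether replicates were separate cultures, and p-values measure only the spread between these samples.

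Cells that run short of an amino acid, accumulate unfolded protein in the endoplasmic reticulum (ER) or suffer mitochondrial damage phosphorylate the translation factor eIF2α. General translation then declines while the mRNA of the transcription factor ATF4 is translated more, and ATF4 switches on genes that make amino acids, import them and charge them onto tRNA. This program is called the integrated stress response. Mitochondria keep a small genome of their own, which is transcribed as long polycistronic RNAs and cut at the tRNAs into 2 ribosomal RNAs, the mRNAs of respiratory chain subunits and the tRNAs.

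Total counts ranged from 18863852 to 23597726 in the 3 medium libraries and from 19514611 to 23025822 in the 3 vehicle libraries, with 15139 to 15722 genes at 10 or more counts in each. Library pairs within a group differed by more than sampling noise, with a chi-square per degree of freedom of 2.06 to 2.61, so every replicate was counted once. The labelled cell type was checked against marker genes in CPM, a count divided by the total of its library on a common scale. All 8 markers of mesenchymal glioma, such as VIM, CD44 and COL1A1, were above 1 CPM, and their sum was 23060 to 23404 CPM in vehicle and 21685 to 21851 CPM at the medium dose. Of 8 astrocytic and neural markers only nestin (NES) was above 1 CPM. The astrocyte marker GFAP was at 0.0424 to 0.261 CPM and AQP4 had no count in all 6 libraries, so the data show a mesenchymal glioma line without the defining astrocyte markers. None of 6 epithelial and 2 endothelial markers was above 1 CPM, and of 3 leukocyte markers only PTPRC was.

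More genes rose than fell at the medium dose. Of 13802 genes tested, 522 (3.78%) were differentially expressed genes (DEGs), with an adjusted p of the DESeq2 Wald test under 0.05 and a change of more than 1.5-fold. Of these, 321 (2.33% of the genes tested) were higher and 201 (1.46%) were lower at the medium dose than in vehicle. The median log2 fold change was 0.85 over the higher DEGs, -0.78 over the lower DEGs and -0.00 over all genes tested. Changes of more than 2-fold were counted for 110 higher and 37 lower DEGs, and changes of more than 4-fold for 18 higher and 0 lower DEGs. Protein-coding genes made up 445 of the DEGs and long non-coding RNA genes 52. The 3 medium libraries lay wholly on one side of the 3 vehicle libraries for 517 of the DEGs, against 7009 (50.8%) of the genes tested. The same libraries gave the DEG calls, so the 517 are no separate support for them. Without the fold threshold, 2116 genes (15.3%) were higher and 2034 (14.7%) were lower, so the numbers in the 2 directions were then close to equal. In RNA from a whole culture, fewer cells of a kind and less RNA per cell cannot be told apart.

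**Figure D1:**
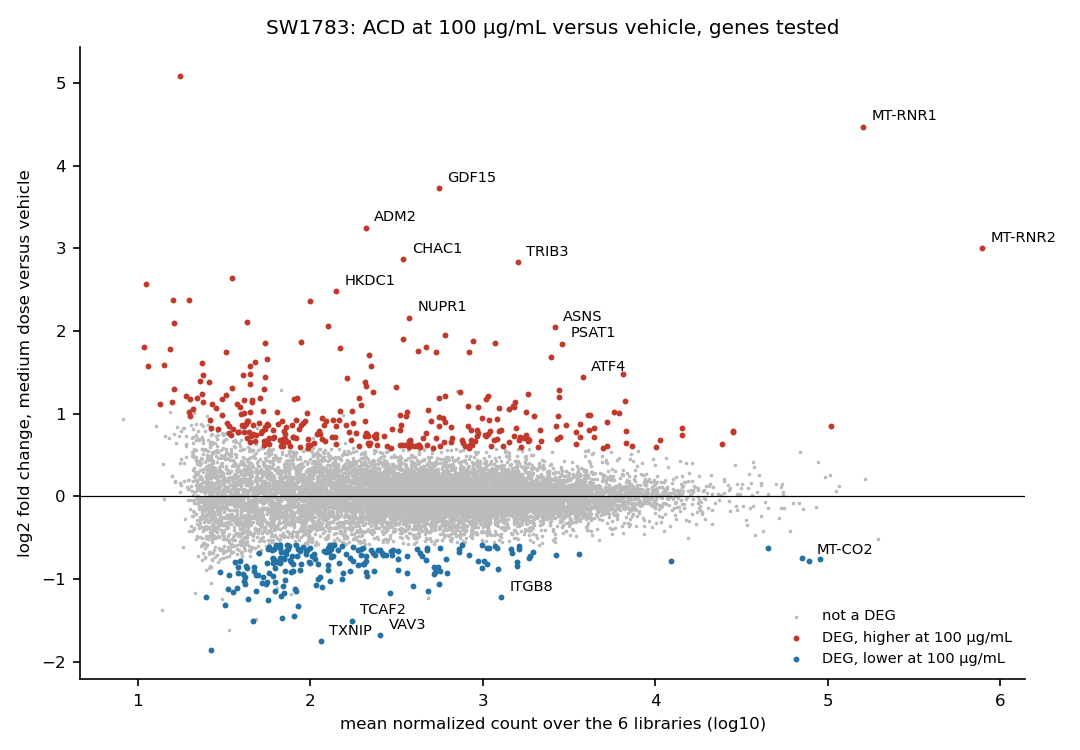
Each point is 1 of the 13802 genes tested, with its mean normalized count over the 6 libraries (log10 axis) and its log2 fold change at 100 µg/mL ACD against vehicle. The 321 higher DEGs (red) reach further from 0 than the 201 lower DEGs (blue), and MT-RNR1 and MT-RNR2 stand apart at high counts.

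Regulators of the integrated stress response rose together. Of 20 members tested, 13 were higher DEGs, beside 2.33% of all genes tested, and none was a lower DEG. The median log2 fold change was 1.08. A further 4 members were higher with an adjusted p under 0.05 at a smaller change. ATF4, the transcription factor at the centre of the program, had normalized counts of 2092, 2024 and 2060 in vehicle and 5380, 5590 and 5744 at the medium dose. The groups were far apart, and ATF4 rose 2.71-fold (log2 fold change 1.44 ± 0.04 SE, adjusted p below what DESeq2 prints). DDIT3, which encodes the pro-apoptotic factor CHOP, was at 505, 481 and 558 in vehicle and at 1978, 1820 and 1760 at the medium dose, a rise of 3.60-fold. ATF3, a stress-induced repressor of the same family, was at 35.9, 39.4 and 39.5 in vehicle and at 120.5, 133.3 and 164.9 at the medium dose (log2 fold change 1.87 ± 0.18, adjusted p = 2.94e-24).

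Several genes known as targets of these factors had larger fold changes. GDF15 (chromosome 19, 18374731 to 18389176), a secreted stress cytokine, was at 63.5, 84.1 and 86.4 normalized counts in vehicle and at 983, 1025 and 1103 at the medium dose. It rose 13.3-fold and overlaps 1 annotated gene on its strand, so its count is uncertain to that extent. TRIB3, a pseudokinase that restrains ATF4 output, went from 437.5, 345 and 398 to 2695, 2853 and 2833, a rise of 7.14-fold. CHAC1 (chromosome 15, 40952962 to 40956512), an enzyme that degrades glutathione, went from 88.1, 75.3 and 88.5 to 617, 578 and 638, a rise of 7.30-fold (log2 fold change 2.87 ± 0.13, adjusted p = 7.19e-111). No vehicle library overlapped a treated one for any of the 3 genes, which the rule for naming the largest changes requires. NUPR1, a stress-induced nuclear protein, rose by 2.16 ± 0.10 on the log2 scale, and SESN2, an inhibitor of mTORC1, by 1.88 ± 0.07. PPP1R15A, the regulatory subunit of the phosphatase that reverses eIF2α phosphorylation, rose 2.09-fold and DDIT4, another mTORC1 inhibitor, 2.30-fold. CEBPG and CEBPB, which can pair with ATF4, rose by 1.10 ± 0.05 and 0.73 ± 0.16, and EIF4EBP1, a repressor of translation, by 0.75 ± 0.06. The eIF2α kinases themselves were not DEGs. EIF2AK3 (PERK) was at a log2 fold change of -0.02, EIF2AK2 (PKR) at 0.02, EIF2AK1 (HRI) at 0.10 and EIF2AK4 (GCN2) at 0.16, and the last pair had an adjusted p under 0.05.

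**Figure D2:**
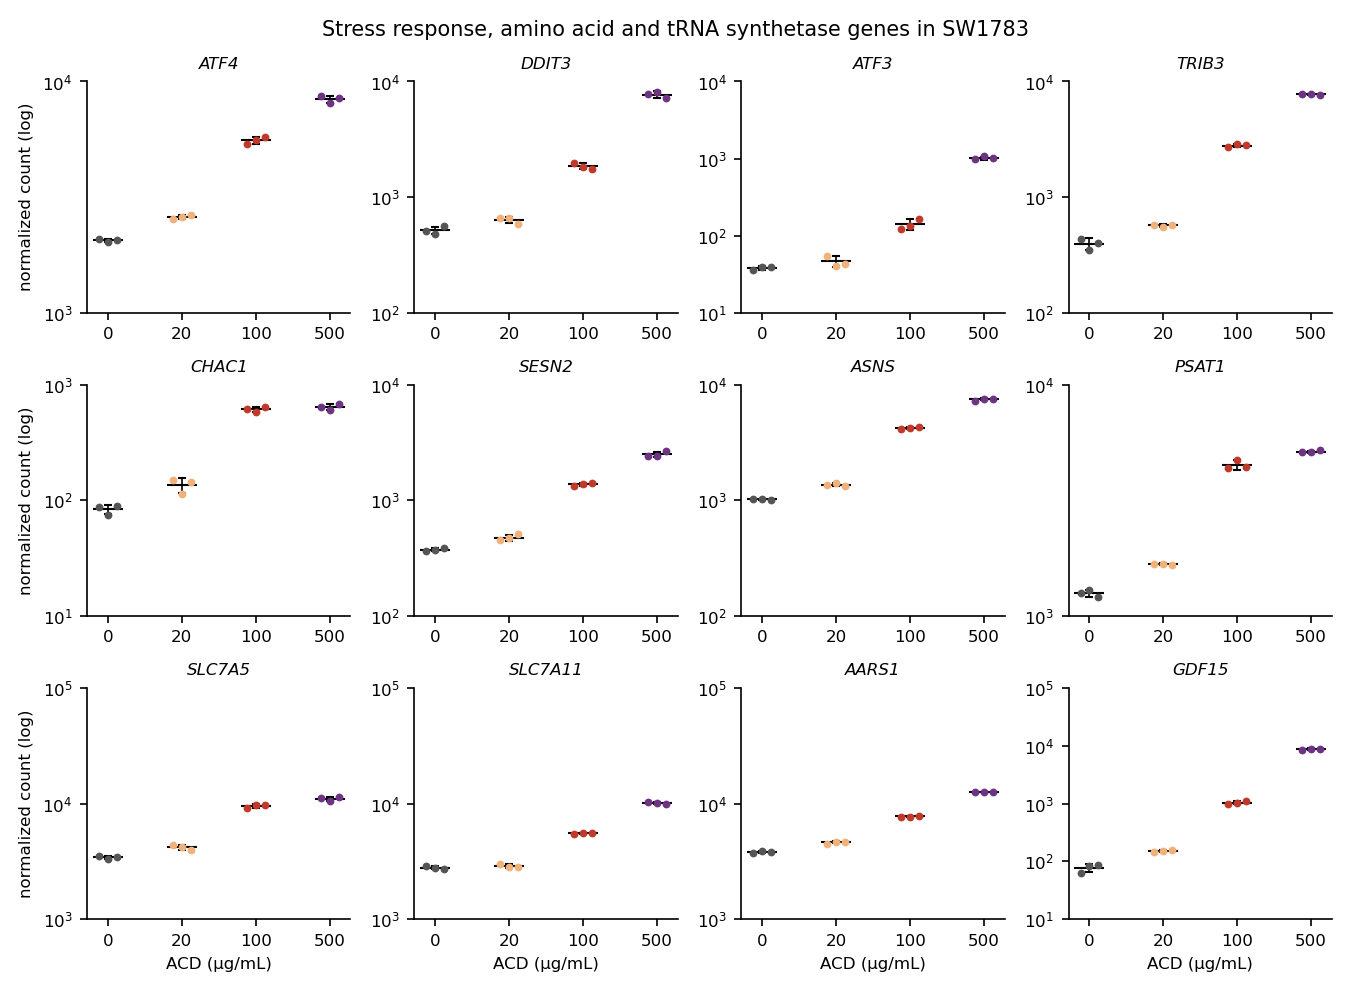
Normalized counts (log axis) of 12 genes of the stress response, amino acid and tRNA synthetase lists in SW1783, by ACD dose. Points are libraries and bars are mean ± SD (n = 3), and the 3 libraries at 100 µg/mL lie above the 3 vehicle libraries in all 12 panels.

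Genes that make amino acids rose beside the regulators. Of 19 tested, 12 were higher DEGs, beside 2.33% of all genes tested, and 0 were lower DEGs. The median log2 fold change was 0.80. ASNS (chromosome 7, 97851677 to 97872542), which makes asparagine, was at 1031, 1028 and 1004 normalized counts in vehicle and at 4139, 4227 and 4324 at the medium dose, a rise of 4.14-fold. The serine pathway rose at its first and its second step, with PHGDH up 2.25-fold and PSAT1 up 3.60-fold, while PSPH, its last step, was at a log2 fold change of 0.46. The mitochondrial folate enzymes ALDH1L2, MTHFD2, SHMT2 and MTHFD1L had log2 fold changes of 1.75, 0.98, 0.72 and 0.61 and were DEGs. The cytosolic enzyme SHMT1, by contrast, was at -0.21. The other higher DEGs were GOT1, GPT2 and PYCR1, at 0.95, 0.85 and 0.80. CBS and CTH, which turn homocysteine into cysteine, rose by 1.91 ± 0.12 and 1.26 ± 0.11, although CBS has a near-identical copy in the annotation and its count is uncertain. GLUL, glutamine synthetase, was at -0.31, and ALDH18A1, at the start of proline synthesis, was at -0.15, both with an adjusted p under 0.05 but no DEGs. PCK2, the mitochondrial PEP carboxykinase, stands outside the list and rose 3.34-fold (chosen after its values were seen).

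Transporters of amino acids moved in both directions. Of 12 tested, 7 were higher and 2 were lower DEGs, beside 2.33% and 1.46% of all genes tested. SLC7A5 and SLC3A2, the chains of the LAT1 exchanger for large neutral amino acids, rose 2.78-fold and 1.75-fold. SLC7A11, which pairs with SLC3A2 to import cystine, was at 2861, 2792 and 2719 normalized counts in vehicle and at 5486, 5561 and 5544 at the medium dose, a rise of 1.98-fold. SLC6A9, SLC1A4, SLC38A1 and SLC1A5 were the other higher DEGs, with log2 fold changes of 1.21, 1.08, 0.99 and 0.61. The glial glutamate transporter SLC1A3 went the other way, from 671, 685 and 714 to 358, 377 and 341 normalized counts (log2 fold change -0.94 ± 0.09, adjusted p = 1.33e-24). SLC38A4, another carrier of neutral amino acids, was lower by a similar amount, with -0.90 ± 0.15.

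The cytosolic aminoacyl-tRNA synthetases, which load amino acids onto tRNA, split into 2 sets. Of 20 tested, 9 were higher DEGs: AARS1, GARS1, YARS1, WARS1, SARS1, MARS1, CARS1, IARS1 and TARS1, with log2 fold changes of 0.61 to 1.02. AARS1 was at 3760, 3910 and 3779 normalized counts in vehicle and at 7651, 7693 and 7875 at the medium dose. NARS1, EPRS1 and LARS1 were at 0.55, 0.54 and 0.46 and VARS1 at 0.09, with an adjusted p under 0.05. The remaining 7, among them HARS1, QARS1, RARS1, FARSA, FARSB and KARS1, did not pass the test and lay between -0.11 and 0.08. The 4 lists of stress regulators, amino acid synthesis, transporters and synthetases had 20, 19, 12 and 20 members tested. Of these, 13, 12, 7 and 9 were higher DEGs, 41 genes together, beside 2.33% of all genes tested.

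The promoters of these genes were searched for TGATGNAA, the core of the composite element that ATF4 binds with a C/EBP partner, on both strands of the 300 bases from 250 before to 50 after the transcription start that RefSeq gives (GRCh38.p14). A promoter was matched for 33 of the 41 higher DEGs and 12 of them (36.4%) held the motif. It was present in 3.67% of 27305 promoters of the table, in 1.59% of 10478 promoters of genes tested, in 8.14% of the promoters of higher DEGs and in 2.11% of those of lower DEGs. The motif of another stress-related class, the E-box CACGTG, was held by 12.1% of the 33 promoters and by 9.97% of those of genes tested. The 12 genes were ASNS, GOT1, MTHFD1L, SLC38A1, SLC3A2, AARS1, CARS1, IARS1, MARS1, TARS1, ATF3 and CHAC1. A match is a description of letters and not a binding site. The 4 lists hold kinds of genes that ATF4 is known to switch on, and list members that did not rise were not searched as a set. Whether the share belongs to the lists or to the genes that rose was therefore not tested. The promoters of ASNS (chr7:97872359-97872658, minus strand), CHAC1 (chr15:40953221-40953520, plus strand), AARS1 (chr16:70289457-70289756, minus strand) and SLC3A2 (chr11:62881449-62881748, plus strand) are shown because they place the motif at different distances from the start, and GDF15 (chr19:18385908-18386207, plus strand) because it had the largest rise of the stress regulators and no match in this window. Each is written 5′ to 3′ on the strand of the gene, with the motif or its reverse complement in capitals.
ASNS: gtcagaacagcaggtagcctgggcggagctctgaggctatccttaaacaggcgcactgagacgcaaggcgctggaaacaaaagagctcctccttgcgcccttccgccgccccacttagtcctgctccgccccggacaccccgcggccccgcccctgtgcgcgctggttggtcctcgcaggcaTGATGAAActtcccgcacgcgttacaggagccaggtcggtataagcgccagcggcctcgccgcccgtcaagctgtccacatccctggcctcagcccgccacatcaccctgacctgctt
CHAC1: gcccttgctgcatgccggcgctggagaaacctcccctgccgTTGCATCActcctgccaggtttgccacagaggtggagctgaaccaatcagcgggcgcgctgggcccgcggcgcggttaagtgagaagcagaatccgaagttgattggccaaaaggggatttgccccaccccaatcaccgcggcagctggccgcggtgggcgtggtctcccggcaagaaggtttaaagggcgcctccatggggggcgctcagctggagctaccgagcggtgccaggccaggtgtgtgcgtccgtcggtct
AARS1: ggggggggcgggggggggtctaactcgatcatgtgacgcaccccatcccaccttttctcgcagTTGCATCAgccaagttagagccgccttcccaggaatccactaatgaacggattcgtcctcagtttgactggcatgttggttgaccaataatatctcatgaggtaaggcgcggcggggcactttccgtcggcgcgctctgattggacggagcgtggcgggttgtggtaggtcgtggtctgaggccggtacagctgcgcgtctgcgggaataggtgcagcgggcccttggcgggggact
SLC3A2: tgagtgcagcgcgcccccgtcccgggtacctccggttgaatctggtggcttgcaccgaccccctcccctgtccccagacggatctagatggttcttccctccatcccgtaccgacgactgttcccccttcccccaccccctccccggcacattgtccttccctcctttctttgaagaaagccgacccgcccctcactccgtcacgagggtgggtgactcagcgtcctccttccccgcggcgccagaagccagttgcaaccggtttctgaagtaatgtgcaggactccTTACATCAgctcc
GDF15: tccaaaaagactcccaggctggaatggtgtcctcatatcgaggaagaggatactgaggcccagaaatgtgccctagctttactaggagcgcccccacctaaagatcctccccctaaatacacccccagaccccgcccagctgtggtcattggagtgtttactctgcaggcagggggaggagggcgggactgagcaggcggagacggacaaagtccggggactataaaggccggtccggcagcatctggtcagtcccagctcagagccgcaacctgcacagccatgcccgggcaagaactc
The first base of the match was 68 bases before the start in ASNS, 209 before it in CHAC1 and 187 before it in AARS1.

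Chaperones of the ER rose less. Of 25 genes of the unfolded protein response tested, 4 were higher DEGs, beside 2.33% of all genes tested, and none was a lower DEG. With an adjusted p under 0.05, 21 were higher, against 15.3% of all genes tested, and the median log2 fold change was 0.35. HERPUD1, a component of ER-associated degradation, went from 1661, 1573 and 1605 normalized counts to 3883, 4016 and 3866, a rise of 2.43-fold. HSPA5 (BiP), the main ER chaperone, went from 74724, 73372 and 74842 to 135401, 135585 and 131660, a rise of 1.81-fold, with every medium library above every vehicle library. The stress sensor ERN1 (IRE1) and the co-chaperone DNAJB9 were the other higher DEGs, at 0.85 ± 0.07 and 0.67 ± 0.06. HYOU1, HSP90B1, PDIA4 and CALR were at 0.46, 0.42, 0.41 and 0.35. Cytosolic heat shock genes did not share this direction. Among 16 tested there was no DEG, a count to be read against 3.78% of all genes tested. With an adjusted p under 0.05, 10 were lower and 1 was higher, beside 14.7% and 15.3% of all genes tested. HSPA8 was at -0.34 and HSPA1A at -0.35.

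Both mitochondrial ribosomal RNAs rose, and MT-RNR1 had the largest fold change among well-counted DEGs, those that average at least 100 normalized counts in the 6 libraries. The 12S rRNA gene MT-RNR1 (chromosome MT, 648 to 1601) was at 13706, 13489 and 14351 normalized counts in vehicle and at 297552, 319246 and 303809 at the medium dose, a rise of 22.2-fold (log2 fold change 4.47 ± 0.05). The 16S rRNA gene MT-RNR2 (chromosome MT, 1671 to 3229) rose 8.04-fold, from 173229, 170590 and 180638 to 1399889, 1450734 and 1363666. Together they took 0.922%, 0.913% and 0.960% of all counts in vehicle and 7.76%, 8.05% and 7.67% at the medium dose, a difference of 6.89 percentage points. An exact two-sided permutation test of the share gave p = 0.10, the smallest value that 3 libraries against 3 allow. Copies of these genes in the nuclear genome share sequence with them, and the way ribosomal RNA was removed from the libraries is not given in the sources used here, so the share describes these libraries and not the cells' rRNA content.

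The mRNAs of the mitochondrial genome did not follow the rRNAs. Of 13, 5 were lower DEGs, beside 1.46% of all genes tested, and none was a higher DEG. With an adjusted p under 0.05, 8 were lower, beside 14.7% of all genes tested. The summed share of counts of the 13 mRNAs was 4.18%, 4.11% and 4.33% in vehicle and 2.80%, 2.79% and 2.89% at the medium dose. Along the genome the log2 fold change stepped down after the rRNAs. MT-ND1 and MT-ND2, subunits of complex I next to the rRNA genes, were at 0.15 ± 0.14 and 0.01 ± 0.14 and did not pass the test. The next 8 genes on the same strand, from MT-CO1 (-0.52) to MT-ND4 (-0.76), were all below -0.38, and MT-ATP8, at -0.39 ± 0.18, was the only one of them that did not pass. MT-CO2, a subunit of cytochrome c oxidase, was at 97613, 97553 and 98461 normalized counts in vehicle and at 55329, 54890 and 61102 at the medium dose, and with -0.78 ± 0.05 it shared the lowest value of the list with MT-ND4L (-0.78 ± 0.07). MT-ND5 was at -0.42, MT-CYB, the last gene of the strand, at -0.08, and MT-ND6, the mRNA of the opposite strand, at 0.06. The last pair did not pass the test. MT-ATP8 with MT-ATP6 and MT-ND4L with MT-ND4 overlap on the genome and their counts are uncertain to that extent. No mitochondrial tRNA was tested of 22, and their mean normalized counts were at most 2.0 at every dose.

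Nuclear genes for mitochondria held few DEGs. None of 33 genes of the respiratory chain and none of 24 genes of mitochondrial transcription and RNA handling was a DEG, beside 3.78% of all genes tested, so that the counts alone say little of these lists. Their medians were -0.03 and -0.06. With an adjusted p under 0.05, 4 were higher and 6 lower in the first list and 3 were higher and 3 lower in the second. Over all genes tested, 15.3% were higher and 14.7% lower at that threshold. TFAM, which packages and transcribes mitochondrial DNA, was at -0.07, POLRMT, the mitochondrial RNA polymerase, at 0.31, and LRPPRC, which stabilizes mitochondrial mRNA, at 0.12. Among 12 mitochondrial stress genes, LONP1, a matrix protease, and HSPA9, a matrix chaperone, were higher DEGs at 0.69 and 0.59. DELE1 and OMA1, which pass mitochondrial damage to the integrated stress response, were at 0.17 and 0.47.

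**Figure D3:**
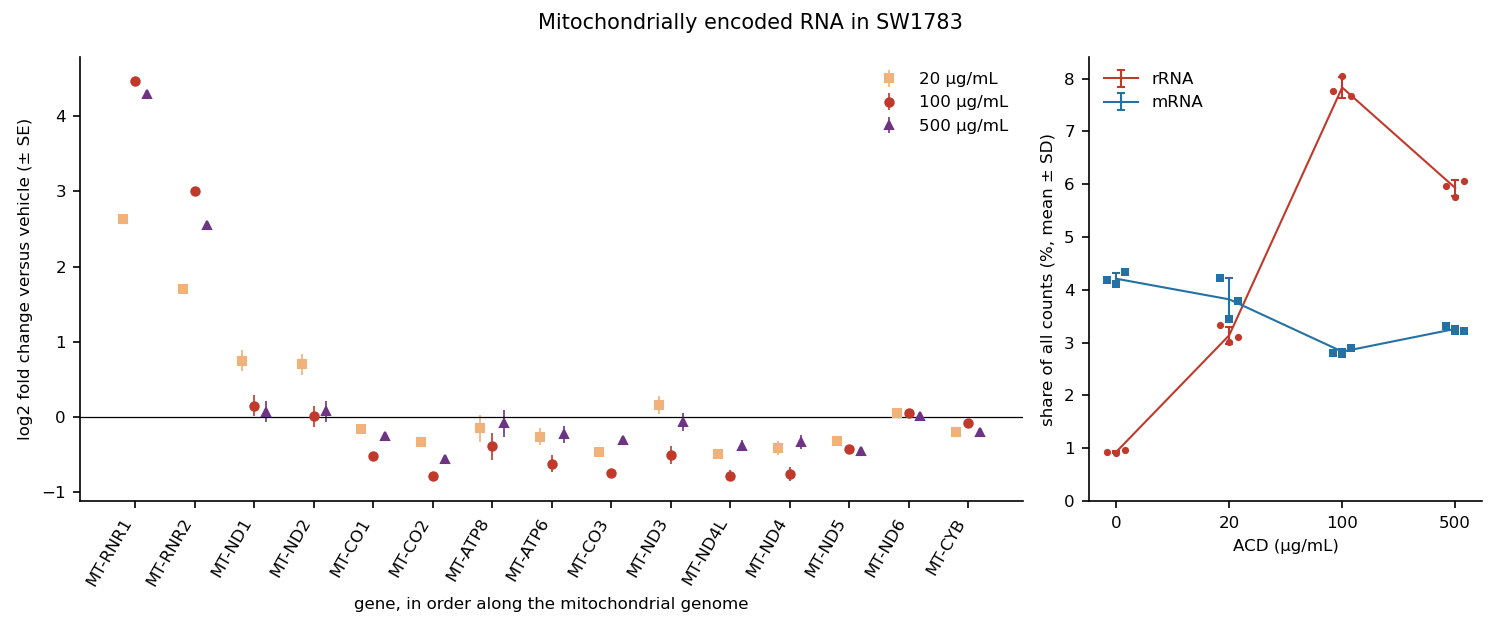
Left, log2 fold change against vehicle (± SE) of the mitochondrial rRNA and mRNA genes in their order along the genome, at 20, 100 and 500 µg/mL ACD. Right, the share of all counts taken by the 2 rRNAs and by the 13 mRNAs in each library (points, with mean ± SD, n = 3). The rRNA share peaks at 7.83% at 100 µg/mL, where the mRNA share is lowest, at 2.83%.

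Genes of inflammation moved in opposite directions. Of 23 NF-kB targets tested, 8 were higher and 1 was a lower DEG, beside 2.33% and 1.46% of all genes tested. IL6 was at 82.0, 85.9 and 69.7 normalized counts in vehicle and at 189, 148 and 125.3 at the medium dose, and CXCL8, a neutrophil chemokine, at 91.2, 104.3 and 107.2 and at 177.3, 219 and 177.2. Their rises were 1.93-fold and 1.90-fold. The adhesion molecule ICAM1 rose 1.66-fold, IL1B 1.63-fold and IL1A 3.06-fold, the last from a mean of only 11.6 normalized counts. RELB, an NF-kB subunit, rose 1.54-fold. CXCL2 and CXCL3, close paralogs whose reads may be shared, were at 3.1 to 9.6 normalized counts in vehicle and at 22.0 to 38.2 at the medium dose. The monocyte chemokine CCL2 went the other way, from 486, 438 and 511 to 274, 239 and 247 (log2 fold change -0.92 ± 0.12, adjusted p = 4.36e-13). PTGS2, the inducible cyclooxygenase, was at -0.41 ± 0.06, under the fold threshold. None of 23 interferon-stimulated genes was a DEG, with a median of 0.00, a count to be read against 3.78% of all genes tested. Of 12 complement genes tested, 5 were lower with an adjusted p under 0.05 but under the fold threshold, beside 14.7% lower of all genes tested whatever the fold. The median over the list was -0.12. CD55, which shields cells from complement, was the only DEG of the list (0.59), and it lost the call without medium replicate 3 (0.57) or vehicle replicate 1 (0.58).

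Antioxidant genes of the NRF2 pathway changed in part. Of 32 tested, 5 were higher DEGs, namely HMOX1, OSGIN1, FTH1, FTL and GCLC, and AKR1C3 was a lower DEG. The counts of this paragraph stand beside 2.33% higher and 1.46% lower DEGs over all genes tested. HMOX1, the enzyme that breaks down heme, was at 1177, 1155 and 1198 normalized counts in vehicle and at 2241, 2478 and 2407 at the medium dose, a rise of 2.02-fold. The ferritin chains FTH1 and FTL rose 1.73-fold and 1.71-fold, and both have processed pseudogenes that can share their reads. NQO1, TXNRD1, SRXN1 and GCLM, genes often used to read NRF2 activity, were at 0.25, 0.25, 0.35 and -0.05. Of 6 genes of the aryl hydrocarbon receptor, 2 were lower DEGs, AHRR at -0.71 ± 0.07 and CYP1B1, a monooxygenase of the pathway, at -0.70 ± 0.04. CYP1A1, at 4.7 to 15.8 normalized counts in the 6 libraries, was not tested.

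Cell cycle genes moved down together by small amounts. Of 30 DNA replication genes, 27 were lower with an adjusted p under 0.05, against 14.7% of all genes tested, and none was higher. Only 4 of them were DEGs, and the median was -0.35. These 4 were E2F2, a transcription factor of S phase genes, CCNE2, a cyclin of the G1 to S transition, and RRM2 and TYMS, which supply nucleotides. RRM2 was at 4629, 4426 and 4349 normalized counts in vehicle and at 2734, 2831 and 2690 at the medium dose (log2 fold change -0.70 ± 0.04). E2F2 was at 142, 152 and 144 and at 64.9, 77.4 and 66.9. The replication clamp PCNA was at -0.52 and the helicase subunit MCM6 at -0.44. Of 30 genes of mitosis and the spindle, 25 were lower with an adjusted p under 0.05 and none was a DEG, with a median of -0.25. The CDK inhibitors did not move as a group, with CDKN2C lower (-0.84), CDKN2B higher (0.62) and CDKN1A at -0.18. An E2F-type sequence, TTTCCCGC or TTTGGCGC on either strand, was present in the promoters of 15 of 23 lower replication genes with a RefSeq entry (65.2%). It was present in 3.68% of the promoters of genes tested and in 4 of 142 promoters of lower DEGs (2.82%). The 65.2% therefore describes the replication list and not the lower DEGs as a whole.

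Genes of cell death and growth factor signalling had single large changes. Of 20 BCL2 family members and death receptors tested, 5 were higher and 1 was a lower DEG, and the counts of this paragraph are to be read beside 2.33% higher and 1.46% lower DEGs over all genes tested. NGFR (p75), a neurotrophin receptor with a death domain, went from 24.6, 24.5 and 21.9 normalized counts to 84.6, 82.9 and 89.5, a rise of 3.62-fold. TNFRSF10B, a TRAIL receptor, rose 1.65-fold and the BH3-only genes BBC3 and PMAIP1 3.43-fold and 1.61-fold (BBC3 from a mean of only 6.9 normalized counts), while BMF, another BH3-only gene, was lower, at a log2 fold change of -0.90. BCL2 itself, an inhibitor of apoptosis, rose 1.70-fold. Of 23 p53 targets, the 5 higher DEGs were GDF15, SESN2, BBC3, TNFRSF10B and PMAIP1, of which the first pair also stands in the stress list, while CDKN1A and MDM2 were at -0.18 and -0.14 and did not pass. In the MAPK/ERK list 4 of 25 were higher DEGs, IER3, DUSP5, MYC and DUSP1, and EGR1 was at -0.08. IRS2, an adaptor of the insulin receptor, rose by 1.27 ± 0.07 on the log2 scale.

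Most of the 201 lower DEGs stood in no list, and 27 were members of 1 or more. The 41 lists matched 910 genes, against 13802 genes tested, so most genes tested stood in no list either. TXNIP, an inhibitor of glucose uptake, had the largest fall among well-counted DEGs, from 189.6, 171.7 and 170.7 normalized counts to 62.6, 56.8 and 39.6, or 3.37-fold (log2 fold change -1.75 ± 0.20, adjusted p = 4.81e-17). VAV3, a guanine nucleotide exchange factor of phagocytosis, went from 405, 406 and 352 to 132, 116.5 and 115.9, a fall of 3.20-fold. ITGB8, an integrin that activates latent TGF-beta, went from 1812, 1731 and 1804 to 851, 763 and 695, a fall of 2.32-fold. The medium libraries were below all vehicle libraries in each case, which the rule for naming the largest changes requires. TCAF2, COLEC12, a scavenger receptor, RAB7B, a small GTPase of late endosomes, and NDST3, a heparan sulfate enzyme, were at -1.50, -1.17, -1.14 and -1.10. FAM111B, LYPD1, MIAT, TMPO-AS1, RASL11A, PDGFD and PADI2 lay between -1.09 and -0.96. TCAF2, ITGB8, COLEC12 and MIAT overlap other genes on their strand.

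In the TGF-beta list the secreted regulators KCP, CCN1 and GREM1 were higher DEGs, at 2.64, 1.16 and 1.05 (KCP from a mean of only 9.7 normalized counts), and the ligand TGFB3 and the target CCN4 were lower, at -0.89 and -0.91. CCN1 was at 4058, 3923 and 4482 normalized counts in vehicle and at 9147, 9350 and 9267 at the medium dose. The median of the 32 members tested was -0.02. The 3 higher and 2 lower DEGs of the list stand beside 2.33% and 1.46% of all genes tested. Of 34 matrix genes only COL3A1 was a DEG (-0.62), a share near the 3.78% of all genes tested, and it lost the call without medium replicate 3 (-0.55) or vehicle replicate 2 (-0.58). With an adjusted p under 0.05, 16 matrix genes were lower and 9 were higher, beside 14.7% and 15.3% of all genes tested. COL1A1 and COL1A2 were at -0.42 and -0.46. Other lower DEGs outside the 41 lists (chosen after their values were seen) were NES, an intermediate filament of neural progenitors, at -0.74 ± 0.14, SNAP25, a vesicle fusion protein, at -0.85 ± 0.09, PDGFRA, a receptor of glial progenitors, at -0.77 ± 0.10, and FGF7, a fibroblast growth factor, at -0.92 ± 0.08. PTPRC, the leukocyte marker counted in this line, was at 257, 287 and 281 normalized counts in vehicle and at 189, 156 and 184 at the medium dose. Its part in the other results was not tested.

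Lists of receptors, channels and calcium signalling were counted in part. Of 26 receptors for acetylcholine, monoamines, GABA and glutamate, 13 had enough counts to be tested. HTR1D, a serotonin receptor, was a higher DEG (1.03), and GABRQ, a GABA receptor subunit, and HTR2A, a serotonin receptor, were lower DEGs (-1.06 and -0.59). With an adjusted p under 0.05, whatever the fold, 6 receptors were lower and 1 was higher, beside 14.7% and 15.3% of all genes tested. Of 22 voltage-gated sodium and potassium channels 10 were tested, with KCNG1, a modifier subunit of potassium channels, the only DEG. It was at 189.6, 191 and 196.7 normalized counts in vehicle and at 602, 623 and 730 at the medium dose, a rise of 3.39-fold. Of 32 genes of calcium signalling 25 were tested, and 8 were higher and 4 were lower with an adjusted p under 0.05. Of these RCAN1, an inhibitor of calcineurin, rose 1.82-fold and PLCD1, a phospholipase, was higher at 0.62. In the list of long-term potentiation 15 of 25 genes were tested, and RPS6KA2, a ribosomal S6 kinase, was the only DEG (0.80).

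Lists of metabolism and basic cell functions held few DEGs or none, to be read beside 3.78% of all genes tested. Of 28 genes of glucose uptake and glycolysis, HKDC1, a hexokinase-like enzyme, was the only higher DEG (2.48 ± 0.16) and TXNIP the only lower one. With an adjusted p under 0.05, 15 were lower, LDHA at -0.34 among them, beside 14.7% of all genes tested. Of 24 cholesterol genes 1 was a lower DEG, and 13 were lower with an adjusted p under 0.05, beside the same 14.7%. Their median was -0.17. A single gene was a higher DEG among 26 lysosomal genes (NPC1, a cholesterol exporter, 0.59), 18 autophagy genes (SQSTM1, the p62 receptor, 0.82) and 27 phagocytosis genes (ITGB3, an integrin, 1.02). In the last list VAV3 and RAB7B were the lower DEGs. EGLN3, a prolyl hydroxylase, was lower (-0.73) among 14 hypoxia genes. No DEG was found among 11 fatty acid synthesis genes, 6 metallothionein genes, 7 EGFR ligands and receptors, 26 genes of ribosome biogenesis and 36 cytosolic ribosomal proteins. The ribosomal proteins lay between -0.09 and 0.21.

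**Figure D4:**
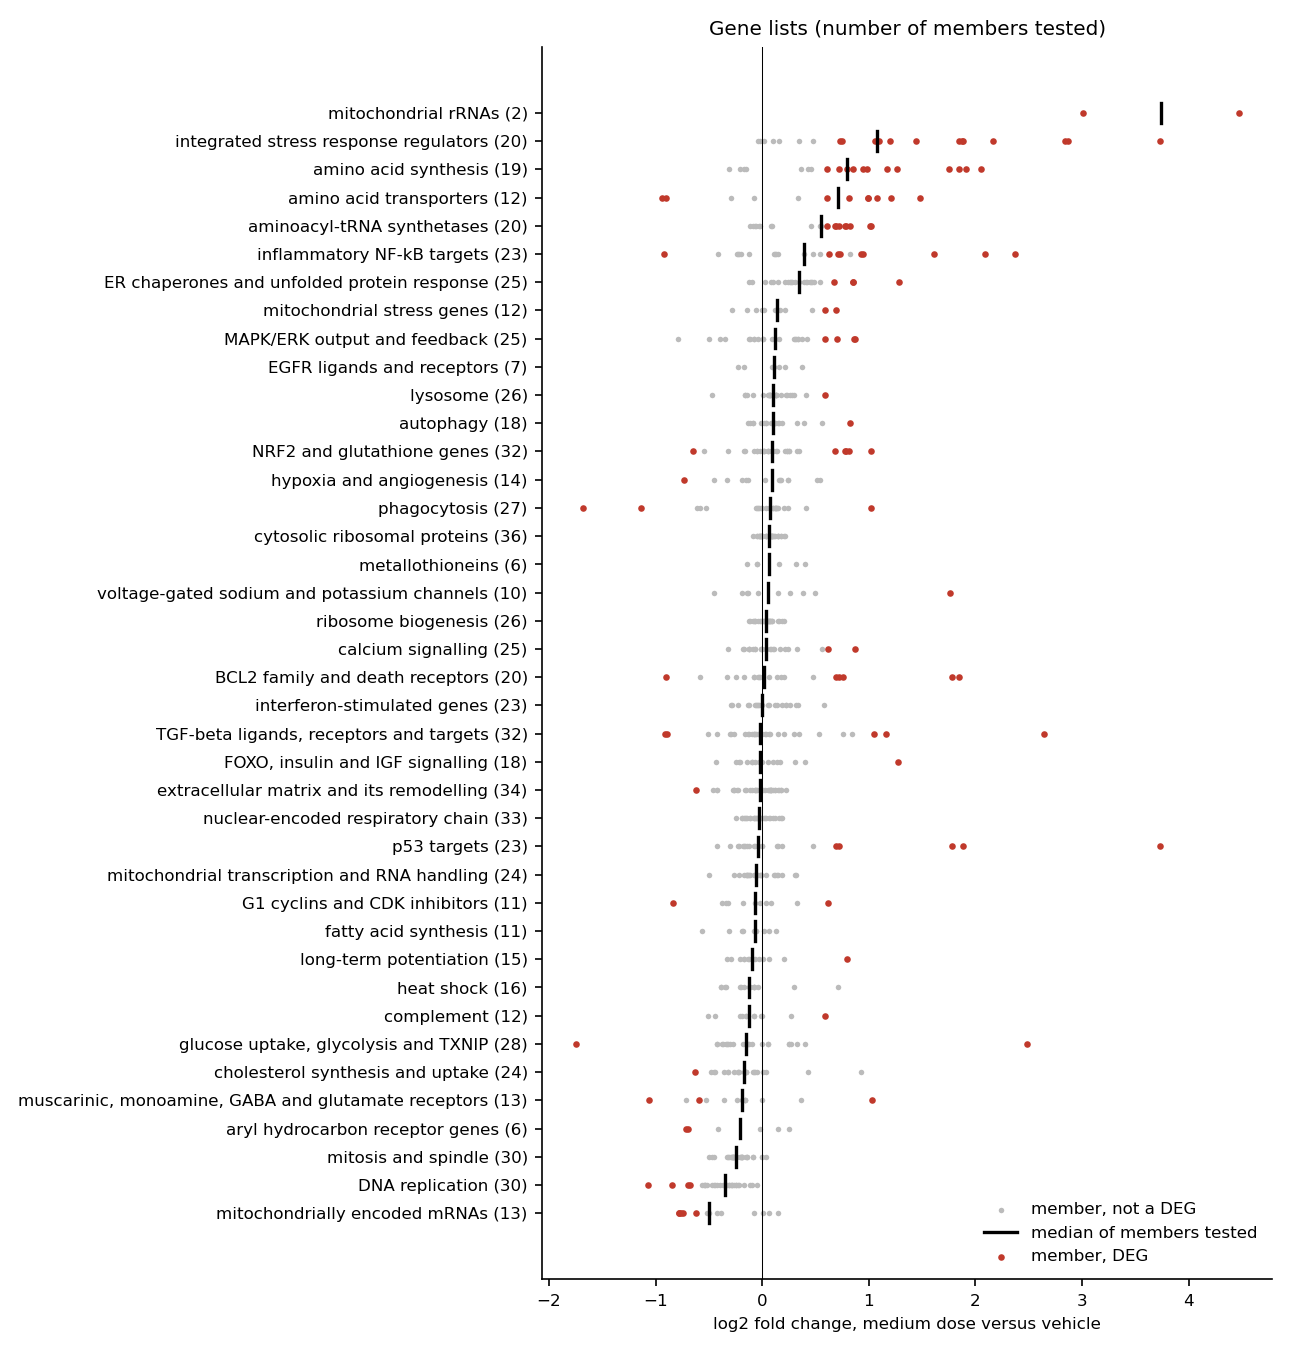
Log2 fold change at 100 µg/mL ACD against vehicle for the members of 40 gene lists (grey, not a DEG; red, DEG), with the median of the members tested (black bar). The lists of stress regulators, amino acid synthesis, transporters and synthetases lie to the right, with medians of 1.08, 0.80, 0.71 and 0.55, and DNA replication (-0.35) and mitochondrial mRNAs (-0.50) to the left.

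The medium dose was then compared directly with the doses on either side. Against the high dose, 1683 of 17199 genes tested (9.79%) were DEGs, with 925 (5.38%) higher and 758 (4.41%) lower at the medium dose. Against the low dose, 274 of 14368 (1.91%) were DEGs, with 190 (1.32%) higher and 84 (0.585%) lower at the medium dose. The comparisons share libraries and are not independent. For the 321 higher DEGs of the medium dose the median log2 fold change against vehicle was 0.20, 0.85 and 1.53 at 20, 100 and 500 µg/mL. For the 201 lower DEGs it was -0.24, -0.78 and -1.60.

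The step from the medium to the high dose differed between genes. GDF15 had 1037 ± 61.1 normalized counts at 100 µg/mL and 8795 ± 241.5 at 500 µg/mL (SD, n = 3), with a log2 difference of -3.08 ± 0.05 for medium against high. CXCL8 (-3.50 ± 0.10), NGFR (-2.95 ± 0.14), ATF3 (-2.86 ± 0.12) and HMOX1 (-2.38 ± 0.04) were also far below their level at the high dose. Of the 23 NF-kB targets tested against vehicle, 15 were lower DEGs of medium against high, next to 4.41% of all genes. CHAC1 stood at 611 ± 30.5 and 640 ± 37.0 and did not differ beyond its error (-0.07 ± 0.10, adjusted p = 0.636). PSAT1 (-0.19 ± 0.04), SLC7A5 (-0.20 ± 0.04), CCN1 (-0.22 ± 0.04) and KCNG1 (-0.23 ± 0.09) were within 1.5-fold of the high dose, although each had an adjusted p under 0.05. Among lower DEGs, VAV3 (121.5 ± 9.2 and 29.1 ± 3.1), RAB7B (301 ± 44.5 and 65.1 ± 5.4), TGFB3 (225 ± 3.3 and 53.8 ± 6.2) and DIO2 (704.5 ± 43.5 and 191 ± 26.9) were higher at the medium than at the high dose.

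Some genes had their extreme at the medium dose. MT-RNR2 was higher at the medium than at the high dose by 0.45 ± 0.05 on the log2 scale (adjusted p = 2.32e-21) and MT-RNR1 by 0.17 ± 0.05 (adjusted p = 0.00372). The rRNA share of counts was 3.14% ± 0.16, 7.83% ± 0.20 and 5.93% ± 0.15 at 20, 100 and 500 µg/mL (SD, n = 3). TXNIP had mean normalized counts of 177.3 ± 10.6 without ACD and 87.8 ± 7.9 at 20 µg/mL, reached 62.6, 56.8 and 39.6 in the libraries at 100 µg/mL and stood at 135.8 ± 24.4 at 500 µg/mL, where it did not pass against vehicle (adjusted p = 0.0601). The hair keratin gene KRT81 went from 2591 ± 103 to 3003 ± 153.3, 4765 ± 155.3 and back to 2680 ± 83.7, and DDIT4L, an mTORC1 inhibitor, from 304 ± 30.8 to 228 ± 27.5, 162 ± 8.1 and 255 ± 13.2 (both chosen after their values were seen). The difference between medium and high was a DEG for TXNIP (-1.36 ± 0.20), KRT81 (0.83 ± 0.04) and DDIT4L (-0.65 ± 0.13).

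**Figure D5:**
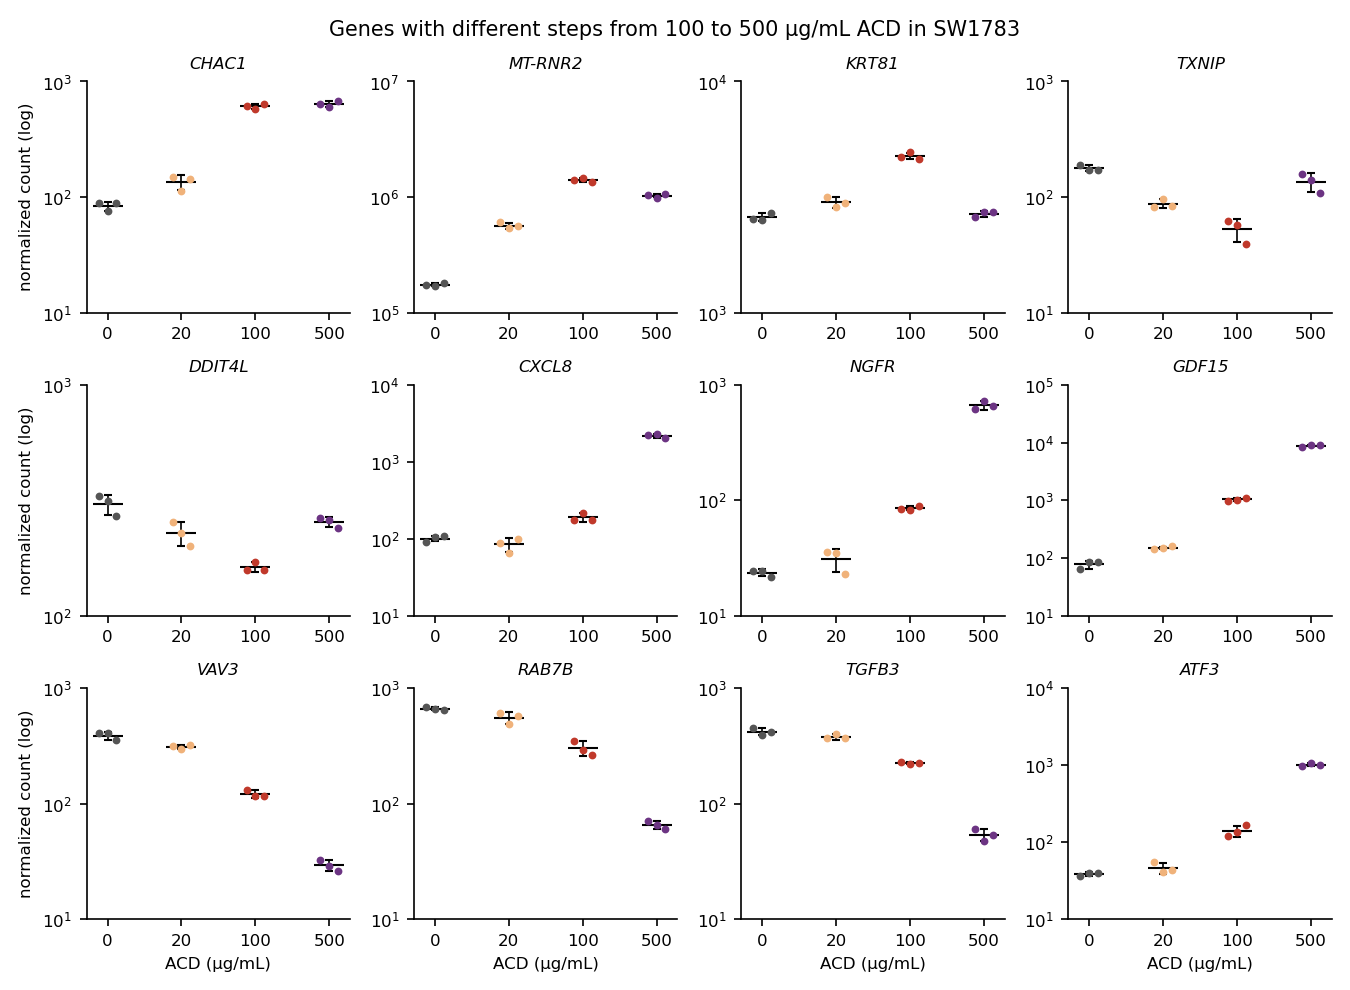
Normalized counts (log axis) of 12 genes in SW1783 by ACD dose, with libraries as points and bars as mean ± SD (n = 3). CHAC1 levels off at 100 µg/mL, MT-RNR2, KRT81, TXNIP and DDIT4L have their highest or lowest value there, and CXCL8, NGFR, GDF15, VAV3, RAB7B, TGFB3 and ATF3 move on to 500 µg/mL.

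From the low to the medium dose the largest rises among well-counted DEGs were those of GDF15 (2.79 ± 0.08), ADM2, a peptide hormone of the adrenomedullin family (2.34 ± 0.14), TRIB3 (2.30 ± 0.05), CHAC1 (2.17 ± 0.11), HKDC1 (2.04 ± 0.15) and MT-RNR1 (1.83 ± 0.05). ADM2 was at 30.7, 42.9 and 45.8 normalized counts in vehicle, 61.6, 84.7 and 79.5 at the low dose and 345, 389 and 404 at the medium dose. MT-RNR1 and MT-RNR2 stood already at log2 fold changes of 2.64 ± 0.05 and 1.70 ± 0.05 against vehicle at the low dose, while ATF4 stood at 0.33 ± 0.04 and ASNS at 0.42 ± 0.05. MT-ND1 and MT-ND2 were lower at the medium than at the low dose, by -0.60 ± 0.14 and -0.69 ± 0.14, and the 3 libraries at the low dose were widely spread for MT-ND1, at 106804, 72133 and 81653 normalized counts.

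Other large rises outside the lists were those of ATP2A3, a calcium pump of the ER (from 27.7, 31.5 and 39.5 to 154, 170.5 and 179 normalized counts), RAB39B, a small GTPase of vesicle traffic (38.9, 57.8 and 48.9 to 196, 206 and 212), and SIK1, a salt-inducible kinase (250, 243 and 255 to 983, 944 and 964). SIK1 has a near-identical copy in the annotation that was also a higher DEG (1.80), and both counts are uncertain. KLF4, a transcription factor, rose 2.62-fold and the tight junction gene CLDN1 3.26-fold (chosen after their values were seen).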

How the data were processed

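Cells were treated for 24 h and directional mRNA libraries were read as pairs. Per the submitters' processing notes the authors used FastQC 0.11.9, Trim Galore 0.6.5, STAR 2.7.3a and RSEM 1.3.3. The deposited table holds RSEM expected counts of 60675 Ensembl genes, not normalized, with 8.78% of the values in the 6 libraries not whole. They were rounded. RSEM divides reads between similar genes, so copies are uncertain. Its strand setting is not given in the sources used here. Symbols and positions (56558 genes) are from GENCODE v44 on GRCh38.

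DESeq2 1.42.0 in R 4.3.3 (two-sided Wald test, default size factors and independent filtering, Benjamini-Hochberg adjustment) was fitted to the 12 SW1783 libraries of batch B with group as the only term, and all adjusted p-values are from it unless edgeR is named. Normalized counts are counts divided by DESeq2 size factors, which lay between 0.863 and 1.141. The median SE of a log2 fold change was 0.070 over the 11261 genes whose normalized counts averaged at least 100. A count of 0 allows 3 counts, for counting error only. The code was tested on simulated data. Alternatives were edgeR 4.0.16, TMM-derived size factors, a filter of 10 counts in 3 libraries, a fit on the 6 libraries compared, the replicate number as a block, libraries left out, the mitochondrial genome left out, no fold threshold and the vehicle of batch A.

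Named genes were the 15 largest changes per sign among DEGs with a mean of 100 or more and no overlap of the groups, up to 4 DEGs per sign and list with a mean of 50 or more, the 6 largest per sign of the dose steps, and some genes always named. List members outside this rule are given as examples or to complete a list, and some genes are not reported here. The comparison, the 41 gene lists, the motifs and this rule were chosen with earlier results of these data known.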

Additional observations from a re-analysis of the deposited data

How the results depend on the processing

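The 522 DEGs of medium against vehicle became 809 with edgeR (469 higher, 340 lower, 516 shared with the 522) and 4150 without the fold threshold (2116 higher, 2034 lower), where the share of higher genes was 51.0% in place of 61.5%. Those of medium against high became 6705 without the fold threshold (3248 higher, 3457 lower). The 274 of medium against low became 427 with edgeR (148 lower) and 2644 without the fold threshold (1299 higher, 1345 lower). With a library left out the counts were 471 to 505 against vehicle (284 to 311 higher, 179 to 194 lower), 1455 to 1592 against high (778 to 866 higher, 677 to 726 lower) and 220 to 267 against low (158 to 195 higher, 54 to 72 lower), and the 54 was without low replicate 2. The same replicate numbers did not pair the samples, with correlations of deviations of -0.019, -0.095 and -0.084. A replicate block gave 485, 1538 and 222 DEGs. With the vehicle of batch A in place of batch B there were 585 DEGs, 433 of them shared. The vehicles of the batches were closest between the same numbers (1.53 to 1.64 chi-square per degree of freedom, against 2.06 to 2.31 between replicates within batch B). They may come from the same cultures, so the vehicle of batch A is no independent check. The rRNA share differed by 6.78 to 6.97 and the mRNA share by -1.42 to -1.32 percentage points with a library left out. Independent filtering at 0.05, chosen after seeing the data, gave 503 DEGs. Of 105 named DEGs, 93 kept direction and call in every setting that gave them a value. The call was lost for 12 in 1 or more settings. Among them were BCL2, PMAIP1 and CDKN2B with the vehicle of batch A, HSPA9, NPC1 and DUSP1 with it or without a single library, AKR1C3 (-0.52) and PLCD1 (0.58) without medium replicate 3, and CD55, COL3A1 and HTR2A without either of 2 or 3 libraries, medium replicate 3 among them. The cause was not tested. No direction reversed. CXCL2 and CXCL3 had no adjusted p in the fit on 6 libraries.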
